A study of Mus musculus with 2 samples.

Results

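Transcripts of 10 carbonic anhydrase genes were compared between LM8, a highly metastatic mouse osteosarcoma line, and Dunn, the non-metastatic parental line from which LM8 was derived. The genes were Car2, Car3, Car4, Car5b, Car6, Car8, Car9, Car12, Car13 and Car14, and 21 of 45037 non-control probe sets named 1 of them and no other gene. The family was selected on the LM8 and Dunn signals of Car3, which differ strongly on these same arrays, so the differences below describe the choice and the arrays and test nothing. Neither line had been treated. Both were grown in Eagle's minimum essential medium with non-essential amino acids at 1% and serum at 10%, and total RNA of each was hybridised to 1 Mouse430_2 array. With 1 array per line there is no replicate error and no p-value, which limits the precision of every value below.

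Carbonic anhydrases are zinc enzymes that interconvert carbon dioxide and water with bicarbonate and a proton, and so couple pH, carbon dioxide disposal and ion transport. The mammalian enzymes sit in the cytosol, in mitochondria, in secretions or on the cell surface with the active site outside, and the family also holds proteins that have lost the activity. In bone the cytosolic enzyme Car2 feeds protons to the acid pump of osteoclasts, and in many tumours the surface enzyme Car9 is induced by low oxygen and acidifies the space around the cells.

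Signals are linear MAS5 intensities. The floor of an array was its median over the non-control probe sets, 18.96 in LM8 and 21.06 in Dunn. A probe set above the floor on at least 1 array was called measured, signals under the floor were raised to it before the log2 ratio of LM8 over Dunn was taken, so where 1 array was floored the fold is only a lower bound. Each gene is represented by whichever of its measured probe sets was brightest in mean log2 signal. Of the 21 probe sets, 12 were measured, 6 with both arrays above the floor and 6 with 1 array at it. The remaining 9 lay below both floors, with signals from 0.366 to 14.6 in LM8 and from 0.464 to 6.31 in Dunn. At gene level 8 of 10 members were measured, and Car2 and Car8 were not.

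Both arrays came from the same chip type, scanner type and scan day, per the experiment sheets. All 11830 measured genes together had a median log2 ratio of -0.08, and 770 passed 2-fold upward in LM8 and 1046 downward. The osteoblast lineage genes looked up as a check of the label were above the floor in both lines. Signals were 1739 in LM8 and 1266 in Dunn for Alpl, which encodes alkaline phosphatase, and 743 in LM8 and 687 in Dunn for Sp7, an osteoblast transcription factor gene. Ibsp, which encodes bone sialoprotein and was the 1 gene of these 5 past 2-fold, had 96.6 in LM8 and 239 in Dunn. RNA of whole cultures was measured, so fewer cells that express a gene and less of its RNA per cell cannot be told apart.

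Promoter sequences of 6 members, Car4, Car5b, Car6, Car9, Car12 and Car14, were matched in RefSeq's table for the GRCm38.p6 mouse assembly, each with 250 bases before and 50 after the annotated start. Printed here are those of Car14, the member that was lower in LM8, of Car6, which was higher, and of Car9, the member known as a target of the hypoxia-inducible factors. They are written 5′ to 3′, and the capitals mark the letters ACGTG on either strand, a form of the core of the element that those factors bind.
Car14 promoter, chr3:95904636-95904935, minus strand: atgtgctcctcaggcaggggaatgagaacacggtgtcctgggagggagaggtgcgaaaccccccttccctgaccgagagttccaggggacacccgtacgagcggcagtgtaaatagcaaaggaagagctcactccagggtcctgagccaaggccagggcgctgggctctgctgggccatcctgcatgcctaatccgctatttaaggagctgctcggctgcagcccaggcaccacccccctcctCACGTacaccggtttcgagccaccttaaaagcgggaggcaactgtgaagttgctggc
Car6 promoter, chr4:150201086-150201385, minus strand: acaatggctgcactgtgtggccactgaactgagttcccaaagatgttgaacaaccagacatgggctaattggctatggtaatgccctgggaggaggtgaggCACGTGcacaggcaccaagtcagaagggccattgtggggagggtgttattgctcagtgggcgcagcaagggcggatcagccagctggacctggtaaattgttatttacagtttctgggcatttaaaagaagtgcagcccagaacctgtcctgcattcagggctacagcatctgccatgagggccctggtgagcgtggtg
Car9 promoter, chr4:43506776-43507075, plus strand: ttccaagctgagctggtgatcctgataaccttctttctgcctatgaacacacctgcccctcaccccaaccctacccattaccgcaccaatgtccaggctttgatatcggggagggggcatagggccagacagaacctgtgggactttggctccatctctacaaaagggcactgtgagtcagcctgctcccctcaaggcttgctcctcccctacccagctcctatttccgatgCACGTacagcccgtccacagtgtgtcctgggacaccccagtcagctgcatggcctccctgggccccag

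The letters ACGTG, searched on both strands, were in 4 of the 6 member promoters (Car4, Car6, Car9 and Car14) and in 19.6% of all 32851 promoters of the same length. The match lay on the opposite strand in Car9, 18 bases before the start, and in Car14, 7 bases before it. In Car4 it was on that strand too, but 2 bases after the start. In Car6 the matches on the 2 strands overlap within 1 run of capitals, from 149 bases before the start. Car5b and Car12 had no ACGTG in this window, but other forms of that core were not searched. The AP-1 element TGANTCA was in the Car9 promoter only, 77 bases before the start, against 7.81% of all promoters. GGGCGG, the GC box, was in those of Car5b, Car6 and Car12, against 35.7% of all, and CCAAT in those of Car5b, Car6 and Car9, against 37.4%. TATAAA was in that of Car4 only, 42 bases after the start, against 13.6%. These are matches of letters and not sites of binding.

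By the 2-fold rule 3 of the 8 measured members were higher in LM8 (Car3, Car6 and Car5b), 1 was lower (Car14) and 4 did not pass it (Car13, Car12, Car9 and Car4), with only a bound for Car9 and Car4. The same rule called 6.51% of all measured genes higher and 8.84% lower. Since this contrast chose the family, nothing is read from the comparison of these shares. The median log2 ratio of the 8 genes was 0.60. Per probe set, 5 of the 12 measured were at least 2-fold apart, 4 of them higher in LM8 and 1 lower. Of all measured probe sets 13.7% were 2-fold apart, 5.91% higher in LM8 and 7.79% lower.

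**Figure D1:**
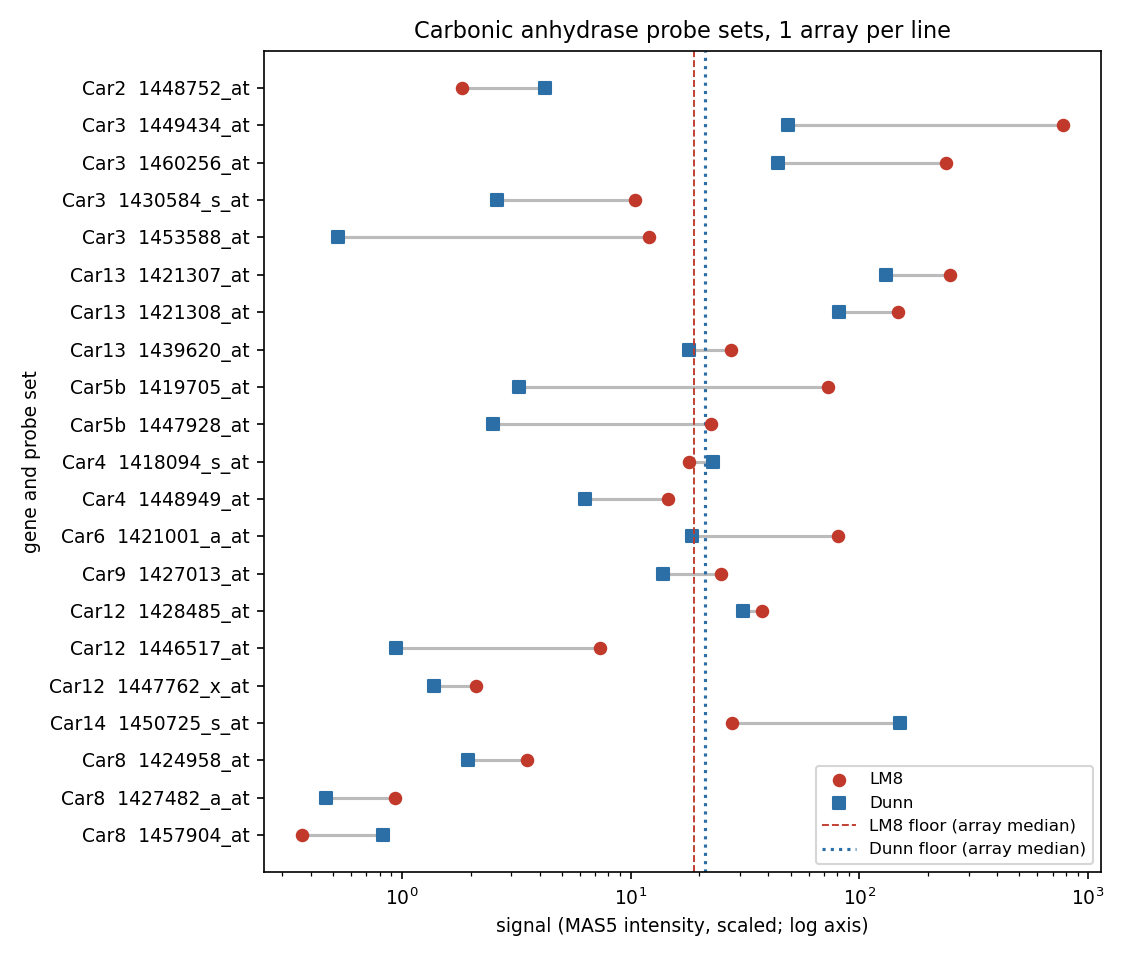
Signal (MAS5 intensity, log axis) of all 21 carbonic anhydrase probe sets, with a circle for LM8, a square for Dunn and vertical lines at the floors of 18.96 (LM8) and 21.06 (Dunn). The 2 measured Car3 probe sets have LM8 far right of Dunn, the Car14 probe set runs the other way, and 9 probe sets lie left of both floors.

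Car3, a cytosolic enzyme, had the largest log2 ratio of the 4 members whose brightest probe set was above both floors. With no floor the dim Car5b, at 4.49, exceeded it. Car3 has weak carbon dioxide hydration activity for a carbonic anhydrase and is best known as an abundant protein of skeletal muscle, adipocytes and liver. Its probe set 1449434_at had a signal of 778 in LM8 and 48.8 in Dunn, a log2 ratio of 3.996 or 15.95-fold. Another probe set, 1460256_at, had 240 in LM8 and 44.2 in Dunn, a log2 ratio of 2.44 or 5.42-fold. Both arrays were above their floors on both probe sets, so these folds are not bounds, and the LM8 signal was the higher on each.

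The annotation ties those 2 Car3 probe sets to the same RefSeq transcript. It ties the other 2, 1430584_s_at and 1453588_at, to 1 and the same GenBank sequence outside the RefSeq transcripts. Their signals were 10.4 and 12.0 in LM8, against 2.62 and 0.526 in Dunn, below the floor throughout. They therefore give no fold. The SD of the log2 ratio between the measured Car3 probe sets was 1.10. This exceeds the median SD of 0.30 over the 5521 genes that had 2 or more measured probe sets, and 97.6% of those genes had an SD as low or lower. The probe sets agreed that Car3 is higher in LM8 and differed on by how much, and this spread is not a replicate error.

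By its brightest probe set Car3 stood at rank 11 of 11830 measured genes, counted from the gene most raised in LM8. The 3 genes above both floors with the log2 ratio nearest to that of Car3, a likeness over 2 arrays only, were Cpe, Anxa3 and Slc16a3. Cpe, which encodes the prohormone-trimming carboxypeptidase E, had 3373 in LM8 and 203 in Dunn, a log2 ratio of 4.06. Anxa3, which encodes a calcium-dependent membrane-binding annexin, had 913 in LM8 and 62.8 in Dunn, a log2 ratio of 3.86. Slc16a3, which encodes a lactate and proton exporter, had 312 in LM8 and 22.1 in Dunn, a log2 ratio of 3.82, with the Dunn signal just above its floor. With floors at the 75th percentiles the log2 ratio of Slc16a3 was 1.70 as a bound.

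Car3 lies on chromosome 3 in a run of carbonic anhydrase genes, where the order in the GRCm38.p6 annotation is Car13, Car1, Car3, Car2. The difference at Car3 was not shared evenly along this run. Car13, a cytosolic enzyme with broad tissue distribution, had 249 in LM8 and 131 in Dunn on 1421307_at, a log2 ratio of 0.92 or 1.90-fold. Its probe set 1421308_at, tied to the same sequence, had 147 in LM8 and 81.2 in Dunn, a log2 ratio of 0.86. The dimmer 1439620_at had 27.4 in LM8 and 17.9 in Dunn, at least 1.30-fold higher. All 3 Car13 probe sets had the higher signal in LM8. On 1421307_at and 1421308_at the difference was under 2-fold, while 1439620_at gave only a lower bound. The SD between the 3, with that bound included, was 0.30. With arrays centred on their medians the Car13 log2 ratio was 1.08, and with scaling on the hybridisation controls 1.17, both past the 2-fold rule.

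Between and beside them, Car1 and Car2 were below both floors. Car2, the fast cytosolic enzyme of red cells, kidney and osteoclasts, had 1.84 in LM8 and 4.23 in Dunn on its 1 probe set. Car1, which encodes another red cell enzyme and is not among the 10, had 5.26 in LM8 and 10.1 in Dunn. Farther out, Rbis, which encodes a ribosome assembly factor, had a log2 ratio of 0.84 (1361 in LM8, 762 in Dunn). E2f5, an E2F transcription factor gene, had -0.33 on its brightest probe set (122 in LM8, 153 in Dunn), but 0.67 with the mean and 1.14 with the median over its probe sets, so its direction is not settled. Sirpb1a, on the other side, had 4.26 in LM8 and 31.0 in Dunn, at least 1.64-fold lower. Of the 4 nearest protein-coding genes on each side, 4 were measured, and Gm9733 and Sirpb1b were not analysed here.

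Car5b encodes a mitochondrial carbonic anhydrase, which supplies bicarbonate to carboxylation reactions in the matrix. Its probe set 1419705_at had 72.7 in LM8 and 3.24 in Dunn, which is at least 3.45-fold higher in LM8 because Dunn was below its floor. The probe set 1447928_at had 22.4 in LM8 and 2.51 in Dunn, at least 1.07-fold higher, with LM8 just above the floor. The Dunn array gave no signal above the floor on either, so the size of the Car5b difference has only a lower bound. With the probe sets averaged the log2 ratio was 0.94, under the 2-fold rule, and with no floor it was 4.49.

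Car6 encodes the secreted carbonic anhydrase, found in saliva and milk. Its 1 probe set had 80.8 in LM8 and 18.5 in Dunn, at least 3.84-fold higher. LM8 was clear of the floor and Dunn just below it. No other Car6 probe set was there to compare with.

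Of the measured surface enzymes only Car14 passed the 2-fold rule. Car14 encodes a transmembrane enzyme with its active site outside the cell, known from kidney, brain, retina and muscle. Its 1 probe set, 1450725_s_at, had 27.7 in LM8 and 150 in Dunn, a log2 ratio of -2.44 or 5.42-fold lower in LM8, with both arrays above the floor. Car14 stood at rank 83 of 11830 counted from the gene most lowered in LM8. The letter s in the name of a probe set marks, by the maker's convention, probes that match more than 1 transcript. With the floor at the 75th percentile of each array, above the LM8 signal, the Car14 log2 ratio was -0.71 as a bound, under the 2-fold rule.

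Car9 and Car12, transmembrane enzymes studied in tumours, were dim in both lines. Car9 had 24.7 in LM8 and 13.9 in Dunn on its 1 probe set, at least 1.17-fold higher. Car12 had 37.7 in LM8 and 31.0 in Dunn on 1428485_at, a log2 ratio of 0.28, and its other 2 probe sets were below both floors. The Car12 difference was smaller than 0.30, the median SD over genes given beside Car3, but lay between 0.38 and 0.53 with the 4 other scalings, and Car9 had a bound only. Car4, anchored in the membrane by a lipid, had 18.0 in LM8 and 22.8 in Dunn on 1418094_s_at, at least 1.20-fold lower. Its other probe set, tied to the same transcript, had 14.6 in LM8 and 6.31 in Dunn, below both floors and in the other order. Car4 has no settled direction.

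Car8, a relative that lacks a zinc-binding residue and binds the inositol trisphosphate receptor in place of catalysis, was below both floors on its 3 probe sets. Signals ran from 0.366 to 3.51 in LM8 and from 0.464 to 1.95 in Dunn.

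**Figure D2:**
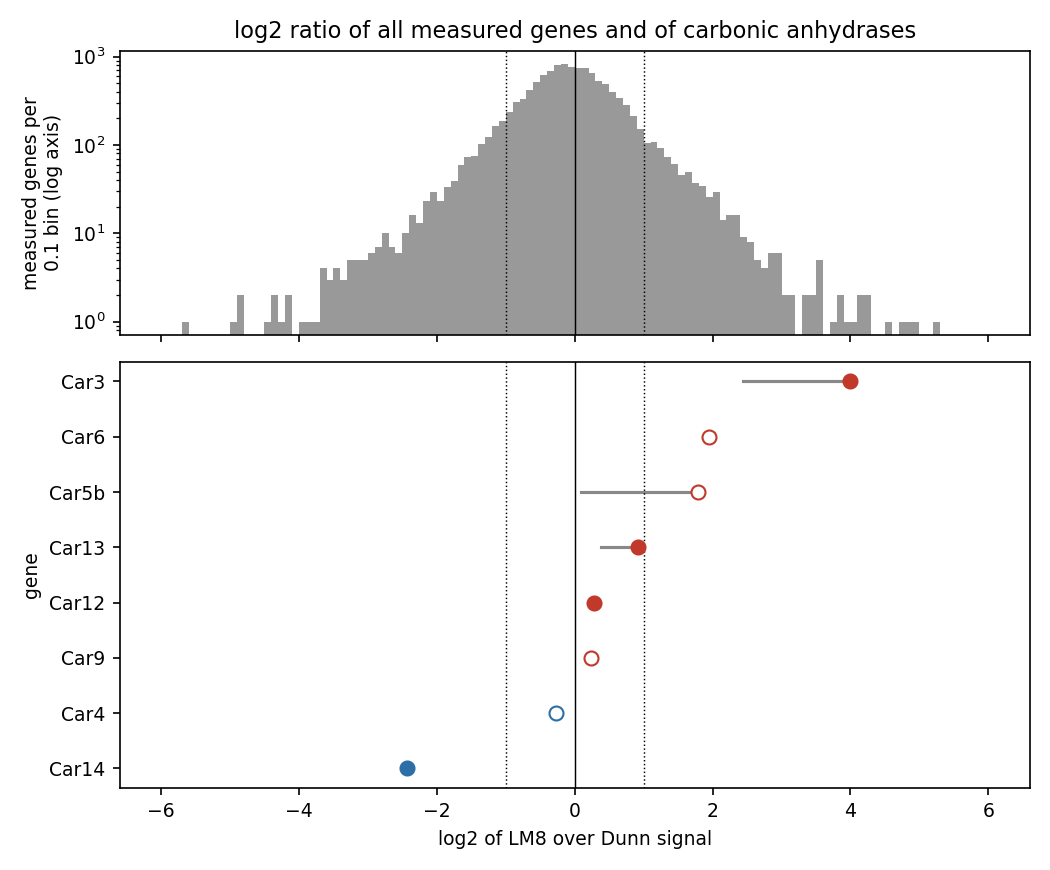
Above, the number of measured genes by log2 ratio of LM8 over Dunn (log axis, bins of 0.1). Below, the 8 measured carbonic anhydrases on the same horizontal axis, where the point is the brightest probe set, an open point is a bound and a grey bar spans the measured probe sets of the gene. Car3 lies near 4 with a bar down to 2.44, Car14 at -2.44, and the bar of Car5b reaches down to 0.09.

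Among the 6 other carbonic anhydrases, 3 were measured and none passed the 2-fold rule, with only a bound for Car7 and Car10. The rule called 6.51% of all measured genes higher and 8.84% lower, so nothing is read from none of 3. Car11, a catalytically inactive relative, had 60.5 in LM8 and 50.9 in Dunn, while Car7 had 12.0 in LM8 and 29.7 in Dunn and Car10 had 14.7 in LM8 and 34.1 in Dunn. With floors at the 25th percentiles 2 of the 6 were 2-fold lower, against 2494 of 16202 measured genes. With no floor 3 were, against 3351 of 18193 genes. Car1, Car5a and Car15 were below both floors.

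Carbonic anhydrases work beside bicarbonate carriers and proton exporters, and these lists differed in single genes. Of 14 bicarbonate transporters 6 were measured, and their median log2 ratio was 0.25. None of the 6 passed the 2-fold rule, which called 6.51% of all measured genes higher and 8.84% lower. With so few genes nothing is read from that. Of the 6, Slc4a3 and Slc4a4 had 1 array under its floor and so only a bound. With floors at the 25th percentiles 1 gene of the list passed upward and 1 downward, against 1647 and 2494 of 16202 measured genes. The chloride-bicarbonate exchanger gene Slc4a2 had 309 in LM8 and 200.3 in Dunn, a log2 ratio of 0.63. Of 17 genes of proton and lactate transport 11 were measured with a median of 0.26. Of these, 2 passed 2-fold upward in LM8 and 0 downward, against 6.51% and 8.84% of all measured genes. Of the other 9, 3 had only a bound. With floors at the 25th percentiles 5 genes of the whole list passed upward, those 2 among them, and 1 downward, beside the all-gene counts just given for those floors. The higher ones were Slc16a3, given above, and Slc9a5, a sodium-proton exchanger gene, with 50.4 in LM8 and 24.7 in Dunn. The other measured probe set of Slc9a5 had a log2 ratio of 0.03. Slc16a1, another lactate carrier gene, had 1609 in LM8 and 1341 in Dunn. Bsg, which encodes the chaperone of both carriers, had 2660 in LM8 and 3368 in Dunn.

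All 19 listed hypoxia regulators and targets were measured with a median of 0.25. Of these, 2 were 2-fold higher in LM8, 2 were 2-fold lower and 15 were neither. The rule called 6.51% of all measured genes higher and 8.84% lower. Epas1, which encodes the hypoxia-inducible factor subunit HIF-2α, had 593 in LM8 and 278 in Dunn, with a log2 ratio of 1.67 on its other probe set. Bnip3, a mitophagy receptor gene, had 830 in LM8 and 269 in Dunn. Hif3a had 28.5 in LM8 and 59.3 in Dunn, and Ndrg1, a stress-response gene, had 1130 in LM8 and 2353 in Dunn. With arrays centred on their medians or scaled on the hybridisation controls no gene of this list was 2-fold lower. On the upward side 3 were 2-fold higher with array medians and 5 with those controls. Of 11830 measured genes, 775 were lower and 1025 higher with array medians, and 639 and 1237 with those controls.

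The other 15 were above both floors and differed by less than 2-fold on their brightest probe sets. Other probe sets could pass it, as log2 ratios of Arnt ran from -0.25 to 1.23 over 5 probe sets. Hif1a, which encodes HIF-1α, had 1292 in LM8 and 844 in Dunn, with log2 ratios from -0.13 to 0.90 over 4 probe sets. The angiogenic factor gene Vegfa had 382 in LM8 and 445 in Dunn, with a log2 ratio of -0.22 that became 0.03 with scaling on the hybridisation controls. The glucose transporter gene Slc2a1 had 494 in LM8 and 395 in Dunn. The glycolytic targets Ldha and Pgk1, with Pdk1, Adm and P4ha1, had log2 ratios from 0.42 to 0.91 on their brightest probe sets. Over all measured probe sets Pgk1 reached 1.48 and P4ha1 1.09, while Pdk1 went down to 0.07.

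**Figure D3:**
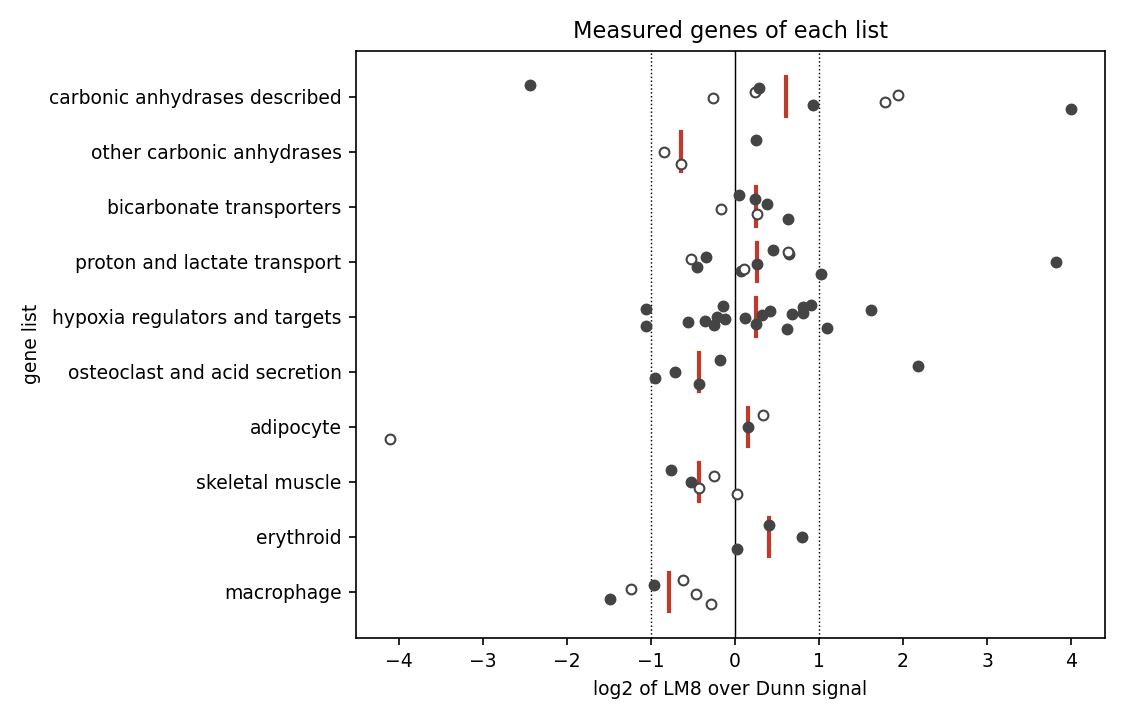
Log2 ratio of LM8 over Dunn for the measured genes of each list, with 1 point per gene, open where 1 array is at its floor, and a red bar at the list's median. The carbonic anhydrases span -2.44 to 3.996, Slc16a3 stands apart at 3.82 among proton and lactate transport, and Pparg at -4.10 among the adipocyte genes.

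Markers of cell types rich in carbonic anhydrases were read beside these values, and no marker was listed at 0. Of 13 skeletal muscle genes, a tissue rich in Car3, 5 were measured, with a median log2 ratio of -0.43. The signals of all 13 summed to 255 in LM8 and 346 in Dunn. None of the 5 passed the 2-fold rule, which called 6.51% of all measured genes higher and 8.84% lower, but 3 had only a bound. With floors at the 25th percentiles 1 gene of the list was 2-fold lower, against 2494 of 16202 measured genes. The muscle creatine kinase gene Ckm had 21.5 in LM8 and 11.5 in Dunn, a log2 ratio of 0.03 as a bound. Its other measured probe set had -0.27. The other measured muscle genes were lower in LM8, at -0.76 for Des and -0.52 for Actn3. Tnni2 had -0.43 and Myod1 -0.25, both as bounds. The skeletal actin gene Acta1 was below both floors. Of the 10 adipocyte genes, another cell type rich in Car3, 8 had a probe set and 3 were measured, with a median of 0.16. The signals of all 8 summed to 85.5 in LM8 and 395 in Dunn. The largest part of the Dunn sum was Pparg, a regulator of adipocyte formation, with 15.4 in LM8 and 326 in Dunn, and without it the sums were 70.1 in LM8 and 68.8 in Dunn. Cebpa, another adipocyte regulator gene, had 26.6 in LM8 and 23.8 in Dunn, and Retn, the resistin gene, 26.6 in LM8 and 3.93 in Dunn. Retn was below the floor in Dunn and Pparg in LM8, so both have only a bound. These bounds were at least 1.26-fold higher in LM8 for Retn and at least 17.2-fold lower for Pparg. The adipocyte genes Adipoq, Fabp4 and Cidec were below both floors, at 1.81, 7.74 and 5.65 in LM8 and 11.8, 11.9 and 10.9 in Dunn. The part of muscle or adipocyte RNA in the Car3 difference was not tested.

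Of 14 genes of osteoclasts and acid secretion, the setting of Car2 in bone, 5 were measured, with a median of -0.43, and the signals of all 14 summed to 796 in LM8 and 836 in Dunn. Ctsk, which encodes the collagen-degrading cathepsin K, had 254 in LM8 and 56.3 in Dunn. The other measured genes of this list were lower in LM8 on their brightest probe sets. Their log2 ratios were -0.96 for Clcn7, -0.72 for Ostm1, -0.43 for Tcirg1 and -0.18 for Nfatc1, whose probe sets ran from -0.40 to 0.41. The osteoclast genes Acp5, Mmp9, Calcr and Oscar were below both floors, as was Car2. Of 9 erythroid genes 7 had a probe set and 3 were measured, with a median of 0.40, and the signals of the 7 summed to 120 in LM8 and 108 in Dunn. Of 8 macrophage genes 6 were measured, with a median of -0.79, and the signals of all 8 summed to 128 in LM8 and 271 in Dunn. Csf1r, the receptor gene of a macrophage growth factor, had 26.8 in LM8 and 75.1 in Dunn, while log2 ratios over its probe sets ran from -1.49 to 0.48. The lysozyme gene Lyz2 had 1.90 in LM8 and 44.8 in Dunn, at least 2.36-fold lower because LM8 was below its floor. Of the 6 measured macrophage genes 4 had only a bound. The part of macrophage RNA in the lower Car14 signal of LM8 was not tested.

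**Figure D4:**
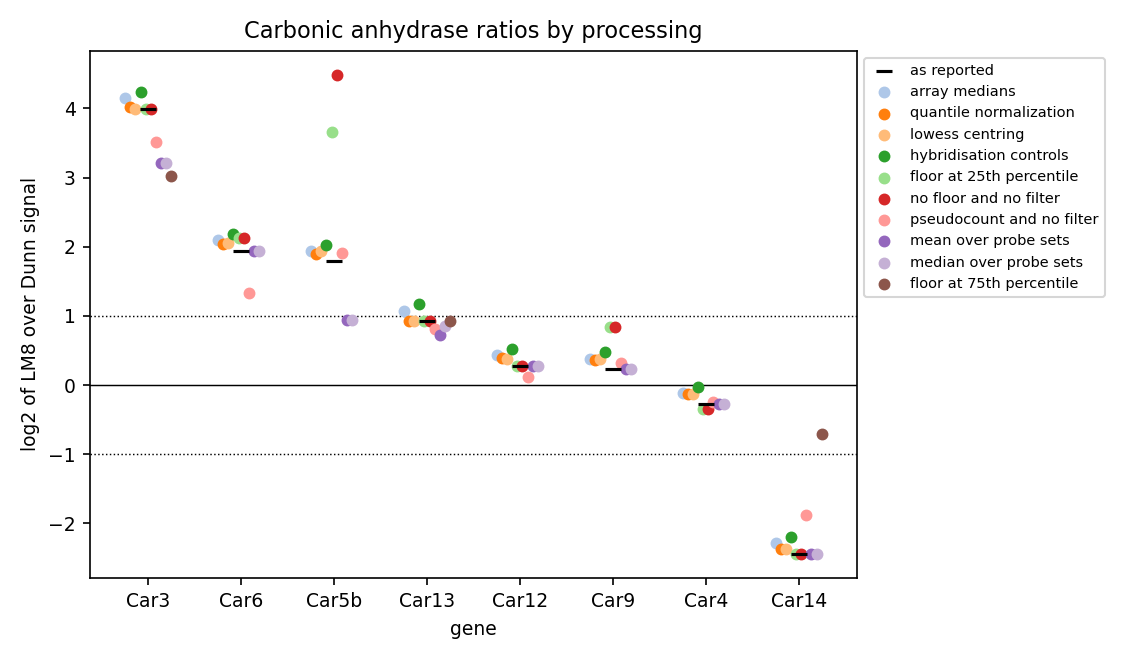
Log2 ratio of LM8 over Dunn of the 8 measured carbonic anhydrases as reported (black bar) and under 10 other ways of scaling, flooring or summarising the arrays (points). Every point of Car3 lies at 3.02 or above, where 3.02 is a bound from the floor at the 75th percentile. Car5b runs from 0.94 to 4.49, and Car14 is under 2-fold only with that floor.

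Car3, Car6, Car5b and Car14 kept their sign under each of these alternatives that gave them a value. Car6 lay between 1.33 and 2.18 and was at least 2-fold higher in all 9 of its alternatives, while Car14 was at least 2-fold lower in 9 of 10. Scaling shifted all genes together, as the median of all measured genes was 0.07 with arrays centred on their medians and 0.16 with the hybridisation controls. With those controls the genes higher in LM8 made up 65.9% of all called genes, with array medians 56.9%, and with the scaling used here 42.4%.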

How the data were processed

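The deposited table holds linear intensity values of 45101 probe sets per array, which the authors computed with MAS5 (named in the submitters' processing notes). Version and settings are not given in the sources used here, and detection calls were not used. The deposited columns share a 2% trimmed mean of 100, and their medians are 18.96 (LM8) and 21.05 (Dunn). The deposited experiment sheets (other text entries, per the file headers) gave chip, scanner and scan day.

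The 64 control probe sets were set aside and the arrays put on a common 2% trimmed mean, a factor of 1.00 on each. Symbols came from the platform annotation (34958 entries with 1 symbol, 932 with several, 9160 non-control probe sets unnamed) and were updated by gene identifier, with 99.4% matched. That gave 18193 genes, 11830 of them measured. The size rule was 2-fold, with no test. Named were all members, up to 4 genes 2-fold apart per list, a few regulators, the 3 genes nearest Car3 in ratio, and its measured neighbours; other genes were chosen after their values were seen. Members and lists were chosen with earlier results of these data known. Alternatives were 4 scalings, a pseudocount equal to each array's median, 3 other floors, 2 gene summaries and a 3-fold rule. The steps were tested on simulated data. Computation used pandas 2.3.3 and numpy 2.4.6 on Python 3.11.15, trimmed means from scipy 1.17.1 and lowess from statsmodels 0.14.6; matplotlib 3.10.9 drew the plots.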

Additional observations from a re-analysis of the deposited data

How the results depend on the processing

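The Car3 log2 ratio of 3.996 became 3.02 when the floor was raised to the 75th percentile, above the Dunn signal, so 3.02 is only a bound. It was 3.51 under a pseudocount without any filter, and 3.22 with either the mean or the median over its probe sets. In the other 6 alternatives it moved by less than 0.30, the median of the within-gene SD over probe sets, up to 4.24. The count of members at least 2-fold higher, 3, was 1 under that 75th percentile floor, which left 3 measured members. The count of lower members, 1, was 0 with that floor and 2 with no floor and no filter. The 5 probe sets 2-fold apart became 2 under that floor, 8 under a 25th percentile floor and 13 with no floor and no filter, where 5, 16 and 21 were measured. Those counts vary with how many dim probe sets each floor admits and with how far it shifts the ratios of measured ones. Car14 stayed measured under the 75th percentile floor, but its log2 ratio went from -2.44 to a bound of -0.71. Under the 3-fold rule Car3, Car6, Car5b and Car14 were still called. Over all 11830 measured genes 770 higher and 1046 lower became 1025 and 775 with array medians. They became 1237 and 639 with the hybridisation controls (12 probe sets, mean log2 ratio -0.24). The counts were 377 and 397 of 7342 genes under the 75th percentile floor, and 1647 and 2494 of 16202 with that at the 25th. With no floor they were 2553 and 3351 of 18193, and under the 3-fold rule 294 and 336 of 11830. No paired analysis was possible because each line has 1 array.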
